A study of Mus musculus with 4 samples.

Results

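Barx1, Barhl2, Lhx2, Pdx1, Batf and Tox3 are 6 of the 26041 gene symbols in single-cell count tables of EOMES-tdTOMATO cells from mouse testis. All 6 encode transcription factors or nuclear regulators of transcription, and they were chosen by their summed UMI counts and shares of cells, which were far lower in Plzf lu/lu than in Plzf +/+ cells, and by their co-detection with each other and with T in Plzf +/+ cells. Those values are therefore described here without a test. For the 6 genes, tests are given only for the splits of Plzf +/+ cells by Gfra1, Eomes and Lin28a. The Gfra1 and Eomes splits are not free of the choice by T. T itself was called higher in Gfra1-positive (log2 fold change 2.62) and in Eomes-positive cells (1.44).

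Testes of mice aged 4 wk were dissociated, tdTOMATO+ cells were sorted singly into wells with negative littermates used to set the gate, and transcripts were counted at their 3′ ends by unique molecular identifiers (UMIs). Both groups carried an Eomes-iCreERt2-tdTomato knock-in allele, where the Eomes locus drives the fluorescent protein. One group was Plzf +/+ and the other was homozygous for luxoid (lu), a loss-of-function mutation of Plzf, which the tables list under the symbol Zbtb16. No other treatment is named in the labels, which name plates and no animals. The control cells came from plates 1, 2 and 4, with 317, 303 and 277 cells per plate. The mutant cells came from plate 3, with 314 cells, and from other wells of plate 4, with 38 cells. The cells of 1 genotype on 1 plate are called a library. A level is given in CPM, the UMIs of a gene per 1000000 UMIs of the library or group of cells.

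Barx1, Barhl2, Lhx2 and Pdx1 are homeodomain proteins, which bind DNA through a conserved helical fold and are best known for patterning embryonic organs. Batf is a basic leucine zipper protein of the AP-1 family that pairs with JUN proteins, and Tox3 carries an HMG box, a DNA-bending domain. In the testis, spermatogonial stem cells depend on GDNF from Sertoli cells, which signals through the receptor pair GFRA1 and RET, and PLZF is a zinc finger repressor needed to maintain these cells. T (brachyury) and EOMES are T-box factors that act in the gastrulating embryo and mark subsets of GFRA1+ spermatogonia.

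The 6 genes lie on 5 chromosomes of the GRCm38.p6 annotation of RefSeq. Barx1 (chr13:48663036-48666507), Batf (chr12:85686720-85709087), Lhx2 (chr2:38339271-38369737) and Pdx1 (chr5:147270097-147275848) lie on the plus strand. Barhl2 (chr5:106452523-106458166) and Tox3 (chr8:90247110-90349029) lie on the minus strand. RefSeq gave 7 promoters for the 6 genes, 2 of them for Lhx2, and the 250 bases upstream of 3 start sites are printed because these genes moved together between the genotypes while their promoters differ in base composition. The Barx1 promoter is GC-rich, the Batf promoter is not, and in the Pdx1 promoter capitals mark an E-box.

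Barx1 promoter, chr13:48662786-48663035, plus strand: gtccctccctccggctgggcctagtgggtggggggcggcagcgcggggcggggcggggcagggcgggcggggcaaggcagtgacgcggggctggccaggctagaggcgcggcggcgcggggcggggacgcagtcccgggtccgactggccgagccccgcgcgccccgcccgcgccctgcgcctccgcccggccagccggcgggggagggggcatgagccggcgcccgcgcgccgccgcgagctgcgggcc
Pdx1 promoter, chr5:147269847-147270096, plus strand: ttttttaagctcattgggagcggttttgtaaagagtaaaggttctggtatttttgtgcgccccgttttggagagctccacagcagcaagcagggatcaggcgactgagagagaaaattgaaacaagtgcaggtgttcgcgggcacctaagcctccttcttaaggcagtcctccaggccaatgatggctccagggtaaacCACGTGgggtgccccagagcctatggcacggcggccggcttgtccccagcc
Batf promoter, chr12:85686470-85686719, plus strand: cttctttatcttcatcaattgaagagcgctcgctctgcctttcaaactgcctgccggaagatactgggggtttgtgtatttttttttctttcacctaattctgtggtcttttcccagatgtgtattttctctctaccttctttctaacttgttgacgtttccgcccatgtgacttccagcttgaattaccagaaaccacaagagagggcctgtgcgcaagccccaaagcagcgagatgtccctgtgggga

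The Barx1 window had a GC content of 85.6% and 40 CpG dinucleotides, against medians of 52.4% and 6 over all 32851 promoter windows of that length. The Pdx1 window had 54.8% and 10 CpG dinucleotides, and the Batf window had 46.4% and 7. The Lhx2 windows had 72.8% and 68.4%, the Barhl2 window 74.8% and the Tox3 window 84.4% GC. The base composition thus differed widely within the set. Both strands of the 7 windows were searched for the T-box half-site AGGTGTGA and its shorter core GGTGTGA, which lies within it, the AP-1 site TGANTCA, the homeodomain core TAATTA, the CRE site TGACGTCA and the E-box CACGTG. The E-box of Pdx1, 51 bases upstream of the start, was the only match, and 6.02% of all windows hold an E-box. The other motifs occur in 1.12%, 3.33%, 6.75%, 4.84% and 1.55% of all windows in the order named.

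The Plzf +/+ libraries held 2005033 to 2372452 UMIs and the Plzf lu/lu libraries 2608702 and 254514, so plate 4 gave the thinnest view of the mutant. Zbtb16 itself was counted 164, 126 and 141 times in the control libraries and 46 and 3 times in the mutant ones, in the order of their plates. Well barcodes were reused between plates, with up to 271 in common, but the 2 genotypes on plate 4 shared 0. The markers fixed for undifferentiated spermatogonia summed to 1240 to 1341 CPM in Plzf +/+ and 978 to 1147 CPM in Plzf lu/lu libraries, with 17 of 17 detected in every library except that Pou5f1 was at 0 in the mutant cells of plate 4. Sertoli cell markers, of which 13 of 14 were in the tables and all 13 were detected in every library, summed to 732 to 893 CPM in Plzf +/+ and 1104 to 1646 CPM in Plzf lu/lu libraries. Peritubular myoid and endothelial markers also summed to more in both Plzf lu/lu libraries, with 12.2 to 36.2 against 37.2 to 47.1 CPM and 22.9 to 35.7 against 36.8 to 47.1 CPM. In the mutant cells of plate 4 only 2 of 6 myoid and 4 of 6 endothelial markers were detected. Of 1249 cells, 29 clustered as Sertoli cells-like. In these 29 cells, with a median of 3162 UMIs, 1 cell had a UMI of Lhx2 and 0 cells had a UMI of any of the other 5 genes, which allows a share of up to 10.3% for each.

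The mutant library of plate 3 was below the control range for all 4 homeodomain genes, and that of plate 4 was below it with its counting interval for Barx1 and Lhx2. Barx1, known for the patterning of stomach and teeth, had 122, 108 and 85 UMIs on plates 1, 2 and 4 of Plzf +/+, which is 57.3, 45.5 and 42.4 CPM. It had 8 and 1 UMIs on plates 3 and 4 of Plzf lu/lu, which is 3.07 and 3.93 CPM. Both were below all 3 Plzf +/+ libraries, with means of 48.4 ± 7.86 CPM (SD, n = 3) and 3.50 ± 0.61 CPM (SD, n = 2) and a ratio of pooled levels of 15.4. Barhl2, a regulator of neuronal identity in retina and spinal cord, had 39, 47 and 51 UMIs (18.3, 19.8 and 25.4 CPM) in Plzf +/+ and 4 and 1 UMIs (1.53 and 3.93 CPM) in Plzf lu/lu libraries. The listed values did not overlap, but the exact Poisson interval of the 1 UMI on plate 4 reaches 21.9 CPM, which is above 2 of the Plzf +/+ libraries. The pooled ratio was 12.1. In a bulk sum of this kind, fewer cells of a type and less RNA per cell cannot be told apart, and the shares of cells are given further on.

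Lhx2, a LIM homeodomain factor of forebrain, eye and hair follicle stem cells, kept the most counts in the mutant. Its counts were 145, 143 and 103 UMIs (68.1, 60.3 and 51.4 CPM) in Plzf +/+ and 28 and 1 UMIs (10.7 and 3.93 CPM) in Plzf lu/lu libraries. The groups did not overlap, and the pooled ratio was 5.93. Pdx1, the regulator of pancreas formation and of insulin transcription, had 28, 39 and 21 UMIs (13.1, 16.4 and 10.5 CPM) in Plzf +/+ libraries, and in Plzf lu/lu 4 UMIs (1.53 CPM) on plate 3 and 0 on plate 4. A count of 0 on plate 4 allows up to 11.8 CPM (3 UMIs), which is above the lowest Plzf +/+ library. Its exact Poisson interval reaches 14.5 CPM, above the 13.1 and 10.5 CPM of plates 1 and 4. Plate 4 alone therefore cannot place Pdx1 below the control range. The pooled ratio was 9.68.

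The other two genes were at or near 0 in the mutant. Batf, known for T and B cell differentiation, had 41, 39 and 37 UMIs (19.3, 16.4 and 18.5 CPM) in Plzf +/+ libraries and 0 UMIs in both Plzf lu/lu libraries, which allows up to 1.15 CPM on plate 3 and 11.8 CPM on plate 4. Both limits were below the Plzf +/+ range, and with the limit of 3 UMIs taken over both libraries Batf was at least 17.2-fold lower. Tox3, known from breast epithelium and neurons, had 64, 85 and 57 UMIs (30.1, 35.8 and 28.4 CPM) in Plzf +/+ libraries and 5 and 0 UMIs in Plzf lu/lu libraries, which is 1.92 CPM on plate 3. The groups did not overlap and the pooled ratio was 18.1.

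**Figure D1:**
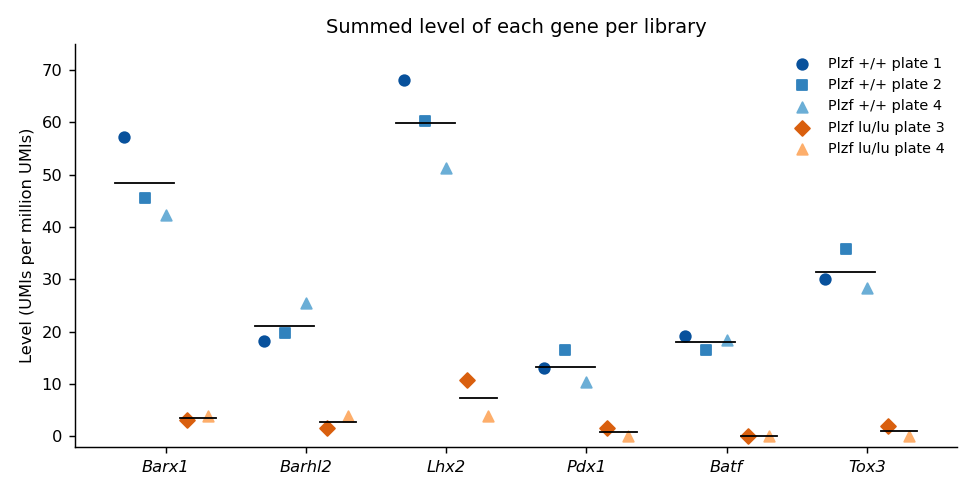
Level of each gene (vertical axis, CPM of the library) in the 3 Plzf +/+ and 2 Plzf lu/lu libraries, 1 point per library. For Barx1 the Plzf +/+ libraries lie between 42.4 and 57.3 CPM and the Plzf lu/lu libraries at 3.07 and 3.93 CPM, and no Plzf lu/lu point, with 0 UMIs drawn at 0, reaches a Plzf +/+ point of the same gene.

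The fitted log2 fold changes of Plzf lu/lu over Plzf +/+ were -3.85 (SE 0.37) for Barx1, -3.45 (SE 0.53) for Barhl2, -2.59 (SE 0.33) for Lhx2, -3.18 (SE 0.62) for Pdx1 and -4.10 (SE 0.47) for Tox3, and no fitted value is given for Batf, whose counts were 0. With the mutant library of plate 3 left out, which leaves the 38 cells of plate 4, they were -3.58 (SE 0.64) for Barx1, -2.39 (SE 0.81) for Barhl2 and -3.89 (SE 0.59) for Lhx2, each resting on 1 UMI, and Pdx1 and Tox3 were at 0 there. Barhl2 and Lhx2 thus moved in opposite directions. With 0 UMIs taken as 0 CPM, both Plzf lu/lu libraries were below all 3 Plzf +/+ libraries for 6 of 6, as for 18.5% of the genes tested. For Barhl2 and Pdx1 on plate 4 the counting limits reach into the Plzf +/+ range, and nothing is read from the count, which uses the contrast that chose the genes. Without the Sertoli cells-like cells the fitted differences were -3.80, -3.40, -2.54, -3.14 and -4.06 for Barx1, Barhl2, Lhx2, Pdx1 and Tox3. This does not remove all Sertoli cell markers, which were found in 95.1% of the 204 Barx1-positive Plzf +/+ cells, of which 0 were Sertoli cells-like. The part of Sertoli cell and other marker transcripts was not tested.

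Plate 4 held both genotypes side by side. Its Plzf lu/lu wells gave 3 UMIs of the 6 genes together, 1 each of Barx1, Barhl2 and Lhx2, where 44.9 would stand at the level of the Plzf +/+ wells of the same plate. For Barx1 the 1 UMI has an exact Poisson interval of 0.0253 to 5.57 UMIs against 10.8 at the Plzf +/+ level, and for Pdx1 the 0 UMIs have an interval of 0 to 3.69 against 2.67. These intervals cover counting error only. On plate 3 and plate 4 together, 9 UMIs of Barx1 stood against 139 at the Plzf +/+ level, 29 against 172 for Lhx2 and 0 against 51.5 for Batf.

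Among the Plzf +/+ cells with a UMI of a gene, exactly 1 UMI was counted in 133 of 204 for Barx1, 187 of 269 for Lhx2, 105 of 148 for Tox3, 101 of 118 for Barhl2, 62 of 74 for Pdx1 and 85 of 100 for Batf. The mean was 1.54 UMIs per positive cell for Barx1, 1.45 for Lhx2, 1.39 for Tox3, and 1.16 to 1.19 for Barhl2, Pdx1 and Batf. Lhx2 was detected in 29.99% of the 897 Plzf +/+ cells, Barx1 in 22.7%, Tox3 in 16.5%, Barhl2 in 13.2%, Batf in 11.1% and Pdx1 in 8.25%. In the 352 Plzf lu/lu cells the shares were 5.97%, 2.56%, 1.14%, 1.14%, 0 (which allows up to 0.852%) and 1.14% in that order. The median cell held 5559, 6111 and 5829 UMIs on plates 1, 2 and 4 of Plzf +/+ and 6364.5 and 5061 UMIs on plates 3 and 4 of Plzf lu/lu, so the mutant cells of plate 3 were the deepest and those of plate 4 the shallowest.

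The cells were next thinned to 2000 UMIs each, a depth that 63 control and 19 mutant cells did not reach. At that depth Lhx2 was found in 12.1%, Barx1 in 9.83%, Tox3 in 6.71%, Barhl2 in 5.16%, Pdx1 in 3.24% and Batf in 2.64% of Plzf +/+ cells. Of 333 thinned Plzf lu/lu cells, 2.40% held Lhx2, 0.300% held Pdx1 and 0 held any of the other 4, which allows up to 0.901% for each. Across the 3 Plzf +/+ libraries the thinned share ran from 9.06% to 11.1% for Barx1, from 8.37% to 14.01% for Lhx2 and from 1.99% to 5.07% for Pdx1. The Plzf lu/lu library of plate 3 had 2.63% for Lhx2, below each of the Plzf +/+ libraries.

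**Figure D2:**
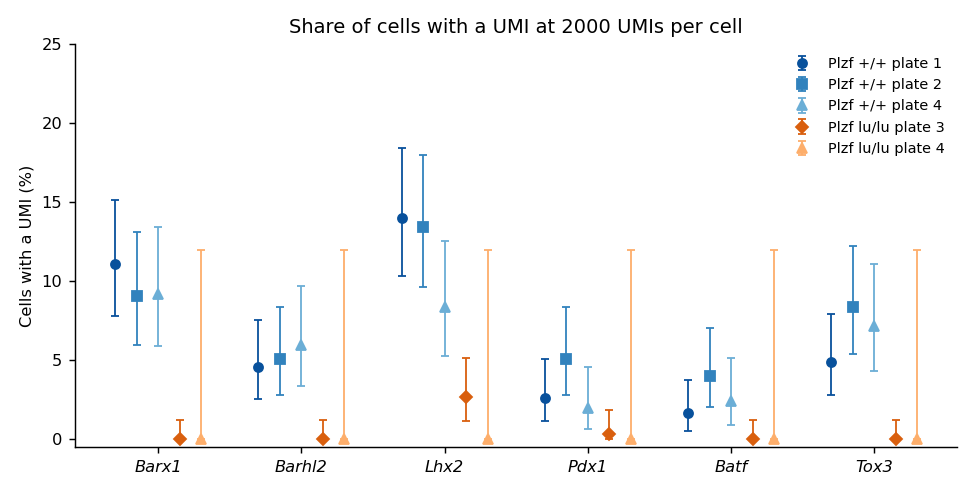
Share of cells with a UMI of each gene (vertical axis, %) after thinning to 2000 UMIs per cell, 1 point per library with its exact 95% Clopper-Pearson interval. Lhx2 runs from 8.37% to 14.01% in the Plzf +/+ libraries and reaches 2.63% in Plzf lu/lu cells, those of plate 3.

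At full depth 522 of 897 Plzf +/+ cells (58.2%, exact 95% interval 54.9 to 61.4) held at least 1 of the 6 transcripts, against 37 of 352 Plzf lu/lu cells (10.5%, 7.51 to 14.2). After thinning the shares were 31.2% and 2.70%. By library, 32.2%, 32.6% and 28.3% of thinned Plzf +/+ cells on plates 1, 2 and 4 held at least 1, against 2.96% on plate 3 and 0 of 29 cells on plate 4 in Plzf lu/lu. The groups did not overlap.

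Among Plzf +/+ cells, 263 held 1 of the 6 genes, 159 held 2, 72 held 3, 24 held 4, 4 held 5 and 0 held all 6. Median depth was higher with that number, from 4855 UMIs in cells with 0 to 14126 in cells with 5. Only 5 Plzf lu/lu cells, all on plate 3, held 2 of the genes, and their median depth was 22283 UMIs against 5770 in Plzf lu/lu cells with 0. Lhx2 was in 4 of these 5 cells, with Pdx1 in 2, with Barhl2 in 1 and with Barx1 in 1, and the fifth held Barx1 and Tox3.

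The genotypes were also compared among cells with a Gfra1 UMI, 566 Plzf +/+ and 134 Plzf lu/lu. Within them Barx1 was detected in 29.7% against 2.99%, Lhx2 in 38.9% against 11.2% and Tox3 in 21.6% against 1.49%. Barhl2 stood at 16.8% against 1.49%, Pdx1 at 10.6% against 2.24% and Batf at 13.4% against 0%. The lower shares in Plzf lu/lu were present among cells that held Gfra1 transcripts as well as over all cells. Plate 3 gave 119 of the 134 mutant cells and plate 4 gave 15, and the values are a description at full depth. Outside the Gfra1-positive cells Lhx2 was detected in 14.8% of 331 Plzf +/+ and 2.75% of 218 Plzf lu/lu cells.

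Clustering of all cells gave 6 clusters, of which the spermatids-like and the Sertoli cells-like could be named. Lhx2 was among the leading genes of the largest cluster, which held 346 Plzf +/+ and 20 Plzf lu/lu cells and was otherwise led by Ppfibp2, Lhx1, Nid1, Fendrr and Egr2, so its level there is part of what defined that cluster. Within that cluster's Plzf +/+ cells Lhx2 was detected in 36.4%, Barx1 in 28.3%, Tox3 in 19.9%, Barhl2 in 17.9%, Batf in 13.9% and Pdx1 in 9.83%. None of its 20 Plzf lu/lu cells held Barx1, Pdx1, Batf or Tox3, for which the exact 95% interval reaches 16.8%. The transcripts were not confined to that cluster. Another unnamed cluster held 208 of the 352 Plzf lu/lu cells and 78 Plzf +/+ cells. In those Plzf +/+ cells Lhx2 was detected in 17.9%, Batf in 14.1%, Barx1 in 8.97%, Barhl2 in 7.69%, and Pdx1 and Tox3 in 1.28% each. In the Plzf +/+ cells of the spermatids-like cluster, the shares were 28.4% for Lhx2, 19.1% for Barx1, 14.2% for Barhl2 and for Batf, 15.6% for Tox3 and 7.09% for Pdx1, at a median depth of 8135 UMIs against 5272 in the largest cluster. In CPM the levels there were lower, with 34.6 against 96.9 CPM for Lhx2 and 22.3 against 74.2 CPM for Barx1.

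Co-detection within Plzf +/+ cells entered the choice of the genes and is given as a description. In each of the 30 ordered pairs of members, the second gene was detected in a larger share of the cells that held the first than of the cells that did not, with ratios of 1.24 to 2.73. Over all genes 76.4% were likewise found in a larger share of the cells with a member. Of cells with Barx1, 49.0% held Lhx2, against 24.4% of cells without, and 16.2% held Pdx1, against 5.92%. Of cells with Tox3, 35.8% held Barx1, against 20.2%. Cells that held a member were deeper, with a median of 7082 against 5415 UMIs for Lhx2, and depth raises every share. In CPM, which depth does not raise, 28 of the 30 pairs were higher, as were 50.4% of all genes. The exceptions were Batf in cells with Barhl2 (17.7 against 18.0 CPM) and Pdx1 in cells with Batf (12.3 against 13.7 CPM). At 2000 UMIs per cell 26 of the 30 were higher, on 1 to 16 cells with both genes, as were 45% of all genes. Tox3 was then in 17.1% of cells with Barx1 and 5.59% of cells without. The 4 that turned over were both directions of 2 pairs. Barhl2 was in 4.88% of cells with Barx1 against 5.19%, and Barx1 in 9.30% of cells with Barhl2 against 9.86%. Tox3 was in 4.55% of cells with Batf against 6.77%, and Batf in 1.79% of cells with Tox3 against 2.70%.

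**Figure D3:**
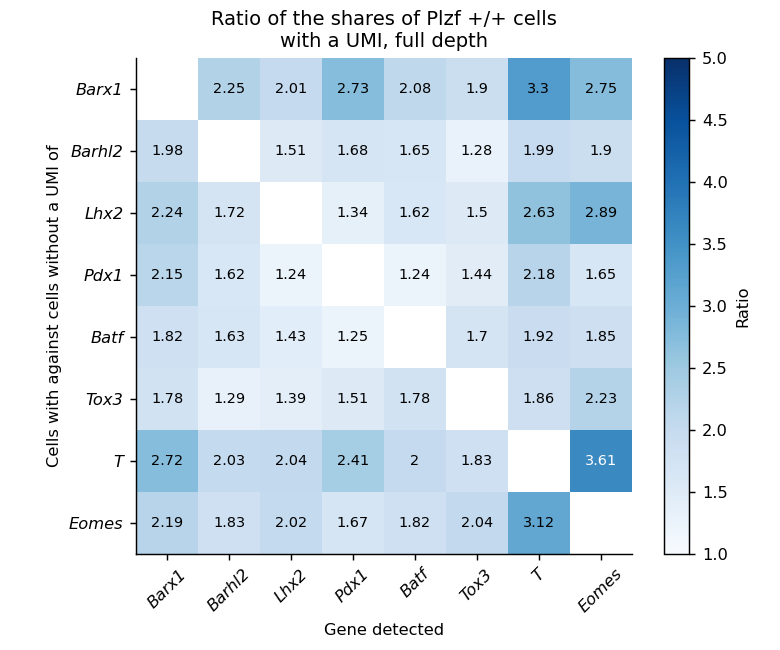
Share of Plzf +/+ cells with a UMI of the gene on the horizontal axis, in cells with the gene on the vertical axis, divided by the share in cells without it. Among the 6 members the ratios run from 1.24 to 2.73, and in cells with T the member ratios run from 1.83 to 2.72.

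Each member was then compared between Plzf +/+ cells with and without a UMI of any of the other 5, summed within each plate. The level was higher in cells with another member on each of the 3 plates for all 6 genes. In the splits made for Barx1, Barhl2, Lhx2, Pdx1, Batf and Tox3 in turn, 19.6%, 18.7%, 15.7%, 20.1%, 18.9% and 18.1% of 15400 genes were higher on all 3 plates, and nothing is read from the count of members, since their co-detection entered the choice. Barx1 had 78.5, 57.5 and 55.2 CPM on plates 1, 2 and 4 in cells with another member and 31.3, 20.7 and 24.2 CPM in cells without. The groups did not overlap, and the fitted log2 fold change was 1.26 (SE 0.22). Barhl2 had 24.9, 22.6 and 34.1 CPM in cells with another member and 9.03, 14.1 and 12.5 CPM in cells without, with a fitted log2 fold change of 1.14 (SE 0.32). After thinning these were 0.96 (SE 0.32) and 0.41 (SE 0.49). The other 4 had log2 fold changes of 0.67 to 0.84.

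Cells with T were compared next, since T was also low in the mutant. Of the 897 Plzf +/+ cells, 134 held a T UMI, at a median depth of 6343 UMIs against 5795 in the 763 without. Barx1 was detected in 49.3% of the T-positive cells against 18.1% of the others, and Lhx2 in 53.0% against 26.0%. Tox3 stood at 26.9% against 14.7%, Barhl2 at 23.1% against 11.4%, Batf at 19.4% against 9.70% and Pdx1 at 16.4% against 6.82%. The gap in depth was smaller than in the splits by members. At 2000 UMIs, with 53 T-positive cells, 5 of the 6 were still the more frequent in T-positive cells, and Barhl2 was not, at 3.77% against 5.25%. Of all genes 65.8% were more frequent in T-positive cells at full depth and 46.0% at 2000 UMIs, and nothing is read from the count of members.

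By plate, Barx1 had 144.7, 91.0 and 61.6 CPM in T-positive cells of plates 1, 2 and 4 and 41.6, 35.8 and 39.1 CPM in the others. The groups did not overlap, and the fitted log2 fold change was 1.24 (SE 0.26). Lhx2 had 147.8, 95.8 and 89.0 CPM in T-positive cells and 53.8, 52.7 and 44.96 CPM in the others, with a fitted log2 fold change of 1.04 (SE 0.23). The median over all genes was -0.06. In CPM 5 of the 6 were higher on all 3 plates, as were 15.3% of the genes tested, and the exception was Tox3 on plate 4, with 23.96 against 29.2 CPM. Barhl2 (0.81, SE 0.37), Pdx1 (0.95, SE 0.46), Batf (0.91, SE 0.41) and Tox3 (0.75, SE 0.34) had smaller fitted values. After thinning the values were 0.57 (SE 0.57) for Barx1 and 0.78 (SE 0.50) for Lhx2. No test of the 6 genes is given in this split, as co-detection with T entered their choice.

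The T split was tested over 15404 genes, with the 6 included in the counts, and 0.545% were called higher and 0.792% lower (edgeR's quasi-likelihood test, Benjamini-Hochberg adjustment). These 206 calls were 3 with DESeq2, 6 without the plate block, 1 without plate 1, 11 without plate 2 and 450 without plate 4, and the genes named from this split are calls of the edgeR fit with all plates. The largest rises were those of Tnfsf12, a TNF family ligand (log2 fold change 2.06), Kdr, a VEGF receptor (1.99), Eomes (1.81), Mapk11, a p38 kinase (1.73), and the LIM homeodomain gene Lhx1 (1.68). The largest falls were those of Ccl5, Igfbp6, Nkg7, Cd52 and Dkk3, each at 0 UMIs in T-positive cells. Ccl5, Nkg7 and Cd52 are lymphocyte genes. Kdr, which is also on the endothelial list, had 26, 11 and 2 UMIs in T-positive cells of plates 1, 2 and 4 and 16, 15 and 11 in the others.

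The share of cells with T was higher the more members a cell held. T was found in 3.73% of 375 cells with 0 members, 14.4% of 263 cells with 1, 27.7% of 159 with 2 and 38.0% of 100 with 3 or more. At 2000 UMIs the shares were 4.36%, 10.0% and 16.3% for 0, 1 and 2 members, with only 11 cells holding 3 or more, of which 0 held T. Gfra1 was found in 42.9%, 70.0%, 84.3% and 87.0% of the same cells at full depth, and Eomes in 3.20%, 9.51%, 14.5% and 25.0%. At 2000 UMIs Gfra1 was in 29.4%, 47.0%, 55.1% and 63.6% and Eomes in 1.22%, 3.50%, 8.16% and 18.2%, the last of each being 7 and 2 of 11 cells. Lin28a, an RNA-binding protein of progenitors, was at 25.3%, 22.8%, 18.9% and 25.0% at full depth and did not follow the number of members.

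**Figure D4:**
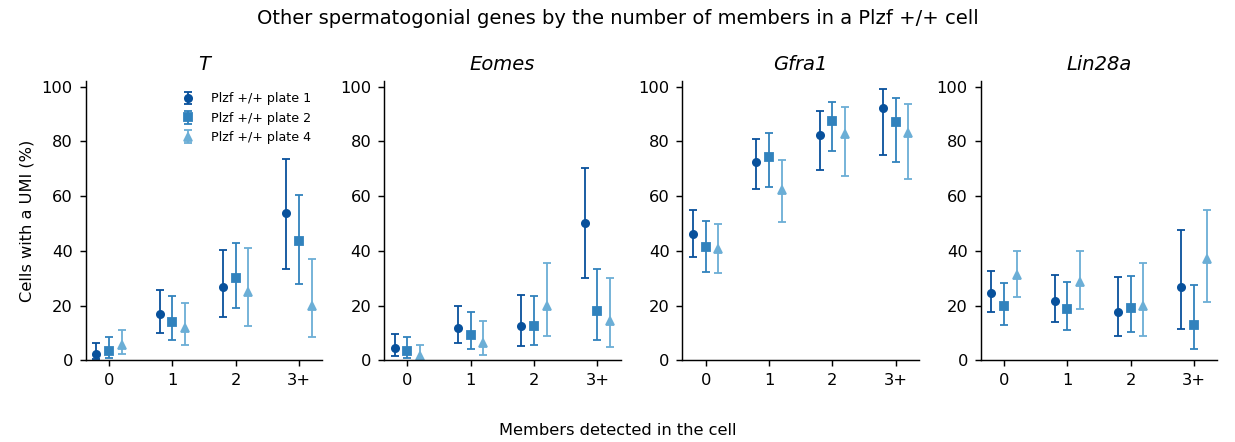
Share of Plzf +/+ cells with a UMI of T, Eomes, Gfra1 or Lin28a (vertical axis, %) by the number of the 6 genes detected in the cell (horizontal axis), 1 point per plate with its exact 95% Clopper-Pearson interval at full depth. Over all plates T goes from 3.73% to 38.0% and Gfra1 from 42.9% to 87.0%, while Lin28a lies between 18.9% and 25.3%.

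Cells with Gfra1 had higher levels of 5 of the 6 genes on all 3 plates, and Batf was the exception, as it was lower on plate 2 (16.1 against 17.7 CPM). On that measure 18.1% of all genes were higher. For Barx1 the level was 68.6, 50.4 and 55.4 CPM in Gfra1-positive and 31.2, 27.5 and 17.5 CPM in Gfra1-negative cells of plates 1, 2 and 4. For Lhx2 it was 78.0, 67.6 and 66.8 against 45.2, 33.4 and 21.8 CPM. Neither overlapped between the groups, yet none of the 6 passed (edgeR's quasi-likelihood test, Benjamini-Hochberg adjustment, adjusted p = 0.0722 for Barx1 and 0.0752 for Lhx2, ranges 0.000159 to 1.00 and 0.000327 to 1.00). In that split 64 genes passed (0.156% higher, 0.260% lower) and 1296 had an unadjusted p under 0.05 with edgeR, and DESeq2 called 15 genes and 0 members. Without plate 2, 2 members passed, while calls over all genes rose to 233 of 13861, 99 of them higher. Genes called higher in the Gfra1-positive cells were led by T (2.62), Lhx1 (2.05), Mapk11 (2.03), the immediate early factor Egr2 (1.57) and Plvap (1.53). Those called lower were led by AW112010, Ptprc, Gzmb, Gzmc and Ccl5, and Ptprc, Gzmb and Gzmc are leukocyte genes. Plate 2 held most of these UMIs, with 0, 24 and 0 of Gzmc and 2, 27 and 1 of Gzmb in the Gfra1-negative cells of plates 1, 2 and 4.

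The split by Eomes called 0 of the 6, with log2 fold changes of 0.32 to 0.75 in edgeR. The split rested on 85 Eomes-positive cells, and 18 genes passed (0.0260% higher, 0.0909% lower), 1038 had an unadjusted p under 0.05, and DESeq2 called 0 genes. In CPM 4 of the 6 were higher on all 3 plates, as were 10.2% of genes. Barx1 had the largest of the 6 differences (0.75, SE 0.30; edgeR, adjusted p = 0.519, range 0.0336 to 1.00). Genes called higher with Eomes were Slc22a14, 1700011A15Rik, T and Nid1, a basement membrane protein. Slc22a14, with 0, 15 and 20 UMIs in Eomes-positive cells of plates 1, 2 and 4, and 1700011A15Rik, with 2, 18 and 20, rested on plates 2 and 4. Those lower were led by Cst12, Wfdc10, Upp1, Clu and Defb19, of which Cst12 and Clu are Sertoli cell markers. Cst12, Wfdc10, Clu and Defb19 were among the leading genes of the Sertoli cells-like cluster.

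Lin28a gave fitted differences of the other sign. In CPM Barx1, Barhl2 and Lhx2 were lower on all 3 plates in Lin28a-positive cells, as were 17.6% of genes, and Pdx1, Batf and Tox3 were each higher on 1 plate. Barx1 fell in Lin28a-positive cells, with a log2 fold change of -0.95 (SE 0.24; edgeR's quasi-likelihood test, Benjamini-Hochberg adjustment, adjusted p = 0.0139, range 0.00122 to 0.986), and 1.60% of genes were called lower and 0.402% higher. The other 5 had values of -0.61 to -0.21 and did not pass. The Barx1 call was lost with DESeq2, without the plate block, after thinning and without plate 1. Genes called higher with Lin28a were led by Gm16222, H2-Q2, Palm, Oasl2 and the imprinted gene Dlk1. Those lower were led by Dcn, Ctsw, Dcdc5, Ptprcap and the lymphocyte gene Nkg7, which also fell in the T split. Dcn rested mainly on plate 1, with 43, 2 and 5 UMIs in the Lin28a-negative cells of plates 1, 2 and 4. Differences between the T, Gfra1, Eomes and Lin28a splits were not tested, since the splits share cells.

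**Figure D5:**
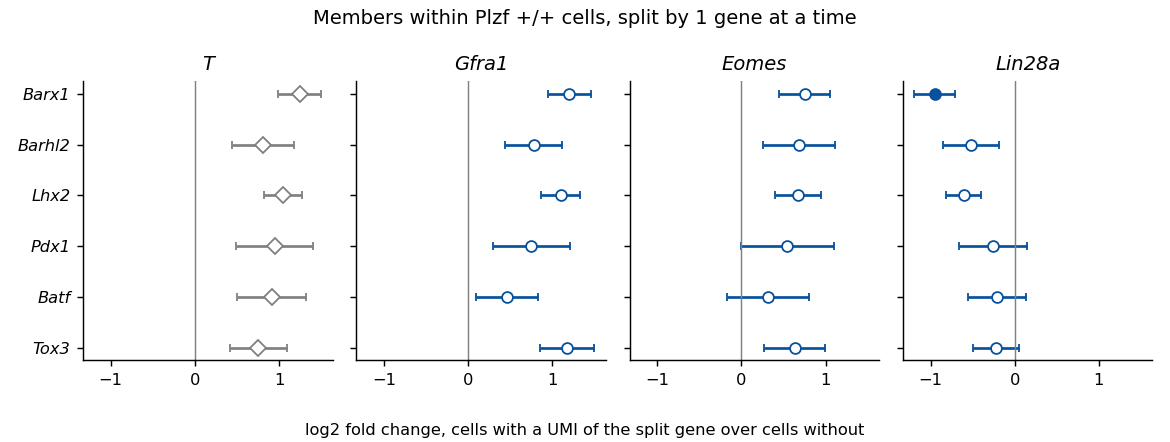
log2 fold change of each of the 6 genes (horizontal axis) between Plzf +/+ cells with and without a UMI of T, Gfra1, Eomes or Lin28a, from sums per plate with plate as a block. Bars are approximate standard errors, taken as the absolute log2 fold change over the square root of the F statistic. In the T split (grey diamonds, Barx1 at 1.24 and Lhx2 at 1.04) values are a description, and in the others filled points mark an edgeR adjusted p under 0.05, which Barx1 (-0.95) reached in the Lin28a split.

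Leukocyte transcripts were followed because Batf is a known lymphocyte gene. Of the 8 T and NK cell markers, 9 of 100 Batf-positive cells held at least 1, with 63.7 CPM in sum, against 51 of 797 Batf-negative cells with 32.7 CPM. The list summed to 20.2 to 59.4 CPM in Plzf +/+ and 38.7 to 70.7 CPM in Plzf lu/lu libraries, in which Batf was at 0. For the other 5 genes the marker sum was 7.33 to 18.7 CPM in positive cells and 38.5 to 52.8 CPM in negative cells. By share of cells Batf did not stand apart, since a marker was found in 13.5% of Pdx1-positive cells against 6.08% of the others, in 9.32% against 6.29% for Barhl2, 7.35% against 6.49% for Barx1, 5.95% against 7.01% for Lhx2 and 5.41% against 6.94% for Tox3. In 91 of the 100 Batf-positive cells none of these markers was detected.

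Likeness over cells was measured as Pearson's r of log-scaled levels over the 897 Plzf +/+ cells and 14014 genes. The coefficients were small and are a description, since points of a plate share a library and low counts share depth. Barx1 was most like Nid1 (0.267), Lhx1 (0.249), Plvap (0.224), Gfra1 (0.214) and Lurap1l (0.212). Lhx2 was like Egr2 (0.296), Nid1 (0.248), Chd4 (0.246) and Abr (0.239), so Nid1 stood high for both. Tox3 was most like the splicing factor Esrp1 (0.211), Chd4 (0.196), Ppfibp2 (0.196), Egr2 (0.174) and Tcl1 (0.172). Barhl2 was most like Tsc1 (0.185), Pmaip1 (0.181), Kat6a (0.180), Usp34 (0.179) and Mapk7 (0.176).

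The rarer genes gave less steady neighbours. Pdx1 was like Smox (0.190), Mapk12 (0.155), 5031434C07Rik (0.154) and Hmgxb3 (0.148), but within plate 4 the coefficient with Smox was -0.05. Batf was most like Gm9169 (0.196), Gm4419 (0.191), Fam20c (0.185), Hid1 (0.182) and Hdac10 (0.173), with -0.03 for Gm9169 within plate 2. Between the members themselves r was 0.00812 to 0.149, with Barx1 and Tox3 the highest pair.

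The relatives and partners of the 6 genes were read from fixed lists in the genotype comparison and in the T split. Of 7 BAR and ParaHox relatives, 4 were in the tables and 0 had enough counts to be tested. Of 21 LIM homeodomain and LIM-only genes and their cofactors, 11 were tested between genotypes, where edgeR called 0.233% of 13728 genes lower and 0.583% higher. An unadjusted p under 0.05 was reached by 5 of the list, some lower and some higher in Plzf lu/lu. After adjustment 2 passed, both lower in Plzf lu/lu. These were Lhx1, with 209, 210 and 173 UMIs in Plzf +/+ and 53 and 2 in Plzf lu/lu libraries (log2 fold change -2.30, SE 0.28; edgeR, adjusted p = 0.0186), and Ssbp2, whose protein stabilises LIM complexes, with 314, 395 and 270 against 171 and 14 UMIs (-1.21, SE 0.18; edgeR, adjusted p = 0.0302). The list's median was -0.39 against 0.00 over all genes. The same 2 genes were called higher in T-positive cells by the edgeR fit with all plates, of 13 tested (Lhx1 1.68, Ssbp2 0.74), with a list median of 0.57.

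Of the AP-1 and BATF partners 0 of 11 passed between genotypes and 0 of 12 in the T split with edgeR, and 2 and 1 had an unadjusted p under 0.05. Their medians were -0.09 and -0.08. Of 13 TOX and HMG-box relatives, Sox3 was higher in Plzf lu/lu, with 27, 28 and 20 against 90 and 9 UMIs (1.64, SE 0.28; edgeR, adjusted p = 0.0478), and it was the 1 of 14 called in the T split, where it was lower (-3.73, SE 0.99; edgeR, adjusted p = 0.0494).

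Of 24 stem cell factors of spermatogonia, Egr4 (1.78) and Utf1 (2.69) were higher in Plzf lu/lu, T (-4.43) and Zbtb16 (-1.97) were lower, and the median was -0.16. T-positive cells had higher Eomes (1.81), Bcl6b (1.37), Egr2 (0.99), Id4 (0.93) and Gfra1 (0.71), all linked to stem cell maintenance. They had lower Nanos3 (-1.37), Sohlh1 (-0.95) and Dmrt1 (-0.85), of which Sohlh1 acts in differentiating spermatogonia. The 23 factors tested had a median of 0.04. The genotype calls outside the 6 genes rest on the same libraries as theirs and were as exposed to leaving one out: 1 to 1387 genes were called over all, against 112 with every library.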

How the data were processed

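Sorted EOMES-tdTOMATO single cells were sequenced from the 3′ end in 3 Plzf +/+ and 2 Plzf lu/lu libraries. The authors deposited raw UMI counts per gene symbol and cell, without normalization, as 1 table per genotype. The submitters' processing notes name bcl2fastq 2.18.0.12, Picard 2.9.3, STAR 2.5.4a and the build GRCm38. Plate and well barcodes gave each cell its library, and on plate 4 the table gave the genotype, with 5 Plzf +/+ cells outside their labelled wells. Leaving these 5 out was chosen after seeing the data. Doublets were not called, since each well was sorted to hold 1 cell. Cells over 4 times the median UMIs were left out in an alternative.

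Counts were summed per library, or per plate within Plzf +/+ cells with and without a UMI of a gene, and fitted with edgeR 4.0.16 (R 4.3.3; TMM, glmQLFit with robust estimation, glmQLFTest, Benjamini-Hochberg adjusted p under 0.05). The genotype fit used filterByExpr and kept 13728 genes. Splits kept genes with at least 15 UMIs over all sums, with plate as a block. The SE of an edgeR value is approximate, as the absolute log2 fold change over the square root of the quasi-likelihood F statistic. p-values measure the spread between libraries or plates, which may be technical. Alternatives were DESeq2 1.42.0, its size factors, other filters, no block, thinning, and leaving out a library, the Sertoli cells-like cells or the deepest cells. Intervals of shares are exact (Clopper-Pearson, 95%) and the limit behind a 0 is 3 counts, and both cover counting error only. Thinning used 2000 UMIs and seed 1. Clusters came from scanpy 1.11.5 and leidenalg 0.10.2 (2000 variable genes, 20 components, 15 neighbors, resolution 0.5).

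The 6 genes and all lists were chosen with earlier results of these data known. Besides the 6 genes, the text names, per gene, the 5 with the highest Pearson correlation among genes in at least 20 Plzf +/+ cells, up to 5 called genes with the largest and 5 with the smallest fold change per split, called genes of the lists, the genes used for splits, and Zbtb16, except for items that are not reported here. The fits of the 6 genes by genotype, by T and by the other members are printed without p-values, since such values entered their choice. Promoters are RefSeq windows of GRCm38.p6.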

Additional observations from a re-analysis of the deposited data

How the results depend on the processing

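Directions of the 6 genes held in 63 of 63 values between genotypes, 72 of 72 in the Gfra1 split and 72 of 72 in the splits by other members, 71 of 72 in the T split, 69 of 72 in the Lin28a split and 68 of 71 in the Eomes split. Values by genotype, by T and by the other members entered the choice of the genes, so nothing is read from those counts. All alternatives reuse the same cells. No fitted value is counted where a side held 0 UMIs, which takes out Batf between genotypes, Pdx1 and Tox3 without the mutant library of plate 3, and Pdx1 in the thinned Eomes split. After thinning, the log2 fold change turned to -0.21 for Barhl2 in the T split, -0.73 for Barhl2 in the Eomes split, and 0.065 for Pdx1 and 0.61 for Tox3 in the Lin28a split. Leaving out a plate, Pdx1 ran from -0.076 to 1.01 and Batf from -0.053 to 0.70 in the Eomes split, both negative without plate 1, and Pdx1 ran from -0.52 to 0.091 in the Lin28a split, positive without plate 2.

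Counts of calls moved far more. Between genotypes 112 genes passed, against 583 with no count filter, 174 with at least 15 UMIs, 64 without Sertoli cells-like cells, 671 without the deepest cells, 139 with DESeq2 and 1 to 1387 when leaving out a library. With the replicate number as a block 0 genes passed (edgeR, 973 at an unadjusted p under 0.05), but the numbers pair nothing: deviations of same-numbered libraries had correlations of 0.0219 and -0.00623. In the T split 206 genes passed, against 3 with DESeq2, 376 with no filter, 27 with filterByExpr, 6 with no block, 46 after thinning, 736 without the deepest cells and 1 to 450 leaving out a plate. In the Gfra1 split 64 genes passed, against 15, 227, 30, 7, 270 and 523 in that order of alternatives and 7 to 233 leaving out a plate. None of the 6 passed, against 3 with no filter, 1 after thinning, 3 without the deepest cells and 0 to 2 leaving out a plate. In the Eomes split 18 genes passed, against 0 with DESeq2, 9 with its size factors, 34 with no filter, 0 with filterByExpr, no block or thinning, 208 without the deepest cells and 0 to 35 leaving out a plate, and 1 of the 6 passed without the deepest cells. In the Lin28a split 308 genes passed, against 19 with DESeq2, 0 with no block, 44 after thinning and 83 to 410 leaving out a plate. There 1 of the 6 passed, against 0 with DESeq2, no block and thinning and 0 to 1 leaving out a plate. Calls of the 6 genes by genotype, by T and by the other members are not given under any setting. The causes were not tested.

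The share of Plzf +/+ cells with at least 1 of the 6 was 31.2%, against 19.5% at 1000 UMIs, 58.2% with no thinning and 3.72% at a minimum of 2 UMIs. In Plzf lu/lu it was 2.70%, against 10.5% with no thinning, 0.300% at a minimum of 2 UMIs and 0% to 2.96% leaving out a library. Depth limits the Plzf lu/lu library of plate 4, which holds 38 cells. Leaving out 1 of 3 plates or 1 of 2 mutant libraries leaves fits with few degrees of freedom, in which the lone library is assumed to vary like the others.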
